A study of Mus musculus with 8 samples.

Results

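The glucocorticoid receptor gene *Nr3c1*, the 2 enzyme genes that switch its ligand on and off, *Hsd11b1* and *Hsd11b2*, and 5 genes known to respond to the receptor, *Fkbp5*, *Tsc22d3*, *Zbtb16*, *Sgk1* and *Per1*, were followed in neonatal mouse cochlear cells. These 8 genes, chosen by symbol in the NCBIM37 annotation, were 8 of the 36536 genes in the count files. Cochleas came from *Lfng-GFP* mice, strain B6;FVB-Tg(Lfng-EGFP)HM340Gsat/Mmucd, in which a bacterial artificial chromosome places EGFP under *Lfng* regulatory sequence. The cochleas were dissected at postnatal day 1 (P1) or 6 (P6), dissociated and sorted at once, without culture or treatment. The GFP+ group held only the brightest cells, which at these ages are Deiters' cells, outer pillar cells, and the border and inner phalangeal cells around the inner hair cells. The GFP- group was a mixture that could hold hair cells, mesenchyme, glia, neurons, blood vessels and further cell types. Dimly fluorescent cells, which the study took for mostly inner pillar cells and inner hair cells, went into neither group. All 4 groups carried the transgene, cells from many cochleas were pooled, and each group had 2 replicate libraries of mRNA sequence. Nothing says that the replicates came from separate animals, so p-values measure only the spread between these libraries.

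Glucocorticoids enter the cell and bind the receptor encoded by *Nr3c1*, which leaves its heat shock protein complex, moves to the nucleus and acts on genes through DNA elements made of a pair of half-sites. 11-beta-hydroxysteroid dehydrogenase type 1 (*Hsd11b1*) regenerates the active hormone from its inert form inside the cell, and the type 2 enzyme (*Hsd11b2*) inactivates it. *Fkbp5* encodes a co-chaperone that lowers the receptor's affinity for hormone. *Tsc22d3* encodes the glucocorticoid-induced leucine zipper protein GILZ, *Zbtb16* the zinc finger repressor PLZF, *Sgk1* a kinase that raises sodium channel activity, and *Per1* a repressor of the circadian clock. The receptor is present in the cochlea, and glucocorticoids are used in the clinic against sudden hearing loss.

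The DNA element of the receptor was searched for as the exact half-sites AGAACA and TGTTCT spaced 3 bases apart, on both strands. Elements with other letters were not searched for, so a gene with 0 matches may still hold one. In the NCBIM37 genome it matched 639 times, or 0.25 times per Mb. The genes *Hsd11b1*, *Fkbp5*, *Tsc22d3*, *Sgk1* and *Per1* were examined for matches. *Nr3c1*, *Hsd11b2* and *Zbtb16*, which had no RefSeq promoter entry, were not examined, so whether they hold matches is not known here. *Fkbp5* held 2 matches and *Sgk1* held 1, all in introns, while the gene bodies of *Hsd11b1*, *Tsc22d3* and *Per1* held 0. The 3 stretches are printed on the strand of the element as read, with the half-sites and the spacer between them in capitals. They lie at chr10:21713495-21713533 on the + strand for *Sgk1*, and at chr17:28557254-28557292 and chr17:28579352-28579390 on the - strand for *Fkbp5*.
Sgk1 intron: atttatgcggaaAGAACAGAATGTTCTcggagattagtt
Fkbp5 intron, site 1: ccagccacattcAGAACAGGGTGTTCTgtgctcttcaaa
Fkbp5 intron, site 2: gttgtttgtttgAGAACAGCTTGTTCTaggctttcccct

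The *Sgk1* stretch also lies before a start site. RefSeq promoter windows of 300 bases (build GRCm38.p6) were found for 5 of the 8 genes, *Hsd11b1*, *Fkbp5*, *Tsc22d3*, *Sgk1* and *Per1*. The full element was in 3 of all 32851 windows (0.00913%), and 1 of these 3 was the *Sgk1* window at chr10:21993640-21993939 on the + strand, where it begins 189 bases before the start site. The 250 bases before that start site are given with the element and the matches to TGTTCT and to the clock protein motif CACGTG in capitals. The CACGTG and 1 TGTTCT overlap by 2 letters, and the other 2 TGTTCT matches, 1 on each strand, are the parts of the element itself.
Sgk1 upstream: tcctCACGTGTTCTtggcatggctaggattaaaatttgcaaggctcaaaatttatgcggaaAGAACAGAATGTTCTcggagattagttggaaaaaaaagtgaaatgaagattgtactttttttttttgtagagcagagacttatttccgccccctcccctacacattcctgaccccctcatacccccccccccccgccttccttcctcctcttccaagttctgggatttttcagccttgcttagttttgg
CACGTG was also in the *Fkbp5* window, 169 bases before the start site, and in 1 *Per1* window, 166 bases before it, against 7.15% of all windows. TGTTCT, which 19% of windows hold, was in 1 *Tsc22d3* window and in 2 further *Sgk1* windows, and the cyclic AMP element TGACGTCA, in 1.79% of windows, was in no window of the 5 genes. A match is only a run of letters, and binding of the receptor was not measured.

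The libraries held 17769024 to 67695039 counts on genes, so that 3 counts, taken as the floor, corresponded to 0.0443 to 0.169 CPM. CPM is a gene's count per 1000000 counts on genes in the same library. The supporting cell markers *Lfng*, *Hes5*, *Fgfr3*, *Prox1*, *Sox2* and *Lgr5* were higher in GFP+ cells in 6 of 6 cases at both ages, with summed levels of 4209 to 6758 CPM against 100.2 to 159.7 CPM in GFP- cells. Of 6 hair cell markers, 4 at P1 and 3 at P6 were also higher in GFP+ cells, with sums of 398.2 to 778.3 CPM against 338.5 to 454.6 CPM. GFP+ replicate 2 at P6 stood apart from replicate 1. It held more of the summed markers of melanocytes (83.5 against 26.3 CPM), endothelial cells (168.5 against 40.2 CPM), Schwann cells (2037 against 764 CPM), mesenchyme (9980 against 5421 CPM), macrophages (80.6 against 44.7 CPM) and red blood cells (76.5 against 20.9 CPM), and less of the supporting cell markers (4209 against 6014 CPM). Results that rest on this library are given with and without it.

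Per kilobase of exon, *Per1* and *Sgk1* led in GFP+ cells at P1, with mean levels of 15.0 ± 1.71 and 14.0 ± 1.83 CPM per kb (SD, n = 2) whose libraries overlapped. *Fkbp5* (9.16 CPM per kb), *Tsc22d3* (8.45), *Hsd11b2* (4.76), *Nr3c1* (3.17), *Zbtb16* (0.209) and *Hsd11b1* (0.0310) followed in that order, each pair of neighbours with libraries that did not overlap. In GFP- cells at P1, *Per1* (19.0 CPM per kb), *Nr3c1* (16.1) and *Sgk1* (14.6) led with overlapping libraries, and *Fkbp5* (3.84) and *Zbtb16* (3.79) also overlapped, between *Hsd11b2* (4.67) and *Hsd11b1* (0.278). By P6 the order had a new head in both fractions. *Sgk1* stood at 42.0 ± 0.171 CPM per kb in GFP+ cells and 44.4 ± 3.42 CPM per kb in GFP- cells, apart from the next gene in each, *Per1* at 17.2 CPM per kb and *Nr3c1* at 27.7 CPM per kb. *Tsc22d3* (9.04 CPM per kb) and *Nr3c1* (8.85) overlapped in GFP+ cells at P6, as did *Zbtb16* (0.423) and *Hsd11b1* (0.277). The last place in GFP- cells at P6 went to *Fkbp5*, at 1.28 CPM per kb.

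**Figure D1:**
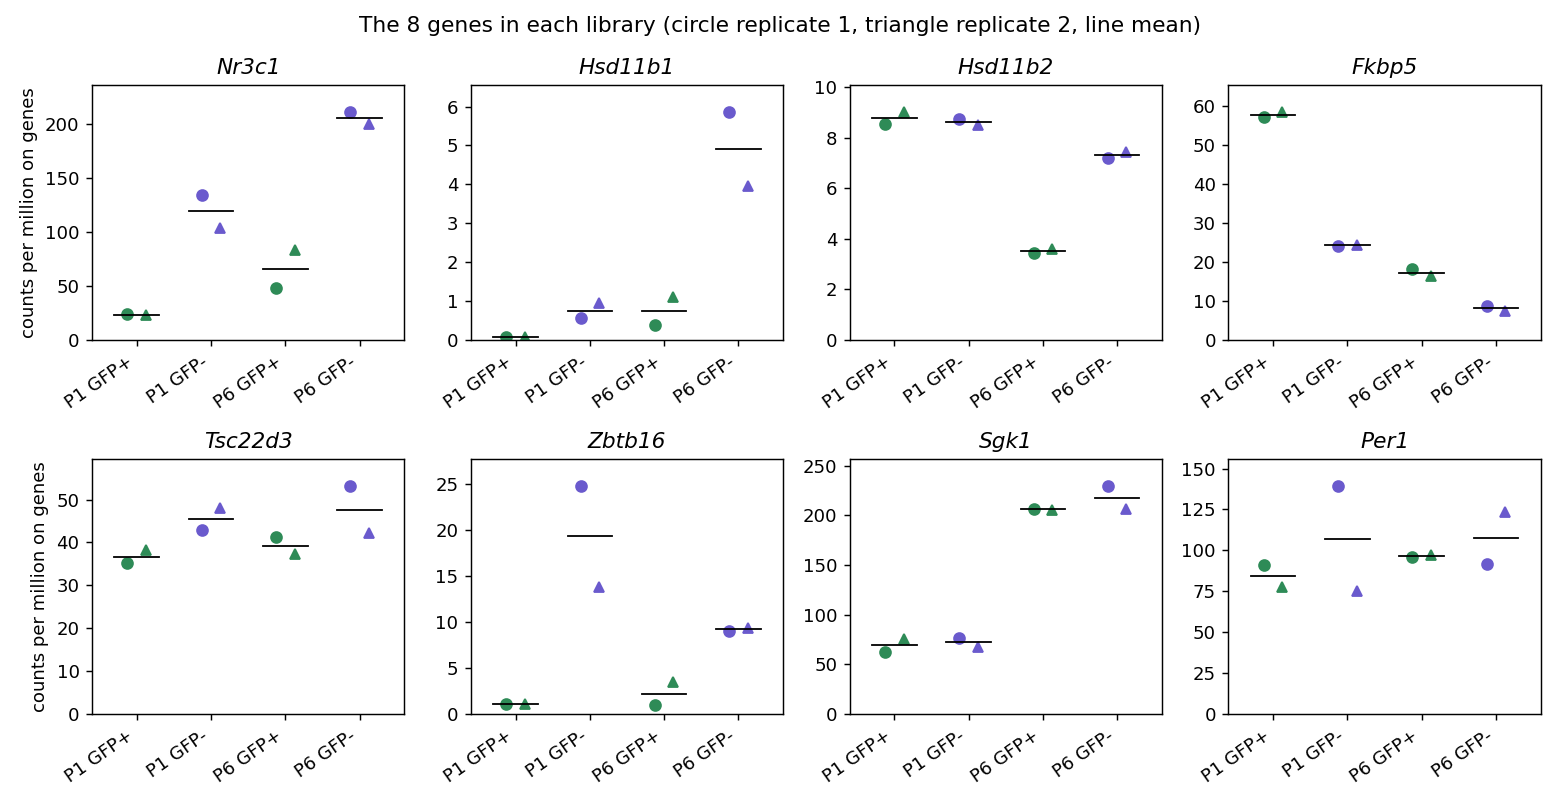
Level of each of the 8 genes in CPM (vertical axes, starting at 0) in the 8 libraries, by group on the horizontal axes; circles are replicate 1, triangles replicate 2 and lines the group mean. *Sgk1* lies between 62.4 and 76.5 CPM in all P1 libraries and at 205.5 CPM or more in all P6 libraries, and *Fkbp5* falls into 4 separate pairs.

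The comparison of GFP+ with GFP- cells at P1 asked which transcripts mark the supporting cells. The receptor and its activating enzyme were lower in GFP+ cells, *Zbtb16* was much lower, *Fkbp5* was higher, and *Hsd11b2*, *Tsc22d3*, *Sgk1* and *Per1* did not pass the test. A gene was called at an adjusted p below 0.01 in edgeR's quasi-likelihood test, with Benjamini-Hochberg adjustment over 18682 genes. Of the 8 genes, 4 were called, 1 higher and 3 lower, against 37.3% of all genes tested in either direction, so a call was common at this age. The 3 that were lower also passed the study's criterion of a change over 4-fold, which 17.8% of genes did with the adjusted p. The median log2 fold change was -0.22 over the 8 genes and 0.0075 over all genes.

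*Nr3c1* (ENSMUSG00000024431, chromosome 18: 39570199 to 39650955, - strand) measured 23.9 and 23.1 CPM in the P1 GFP+ libraries and 134 and 104 CPM in the P1 GFP- libraries. The groups did not overlap, and both GFP- libraries were more than 4 times as high. The log2 fold change was -2.24 (SE 0.15), a 4.71-fold lower level in GFP+ cells, with an adjusted p of 9.14e-05 from edgeR. Markers of melanocytes (5 of 5), mesenchyme (5 of 5), endothelial cells (4 of 4), Schwann cells (4 of 4), red blood cells (3 of 3), macrophages (4 of 5) and neurons (3 of 4) were also called lower in GFP+ cells. Their sums in GFP+ against GFP- libraries at P1 were, for mesenchyme, 5360 to 6728 against 22985 to 24155 CPM, and for melanocytes 0.960 to 2.61 against 252.8 to 375.8 CPM, with *Mlana* at 0 in both GFP+ libraries. Macrophage markers summed to 16.8 to 19.3 against 157.9 to 201.4 CPM, endothelial markers to 20.0 to 22.7 against 90.4 to 93.5 CPM, and Schwann cell markers to 73.1 to 142.6 against 635.1 to 636.2 CPM. Red blood cell markers summed to 5.76 to 11.9 against 236.9 to 253.3 CPM, and neuronal markers to 42.3 to 43.5 against 135.8 to 456.3 CPM. Their part in the levels of the 8 genes was not tested, and in bulk libraries fewer cells of a type and less RNA per cell cannot be told apart.

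*Hsd11b1* (ENSMUSG00000016194, chromosome 1: 195047824 to 195090248, - strand) was the lowest of the 8 genes in P1 GFP+ cells, at 0.0873 and 0.0803 CPM, which are 4 and 2 counts. The P1 GFP- libraries held 0.554 and 0.951 CPM, from 21 and 60 counts. Over both libraries the GFP+ level was 0.0848 CPM with an exact 95% Poisson interval of 0.0311 to 0.185 CPM, and the GFP- level was 0.802 CPM with an interval of 0.637 to 0.997 CPM, both covering counting error only. The intervals were apart, and the log2 fold change was -3.02 (SE 0.56, adjusted p = 0.00545, edgeR). That call rested on both GFP+ libraries, since without replicate 1 or replicate 2 of GFP+ the adjusted p was 0.0580 or 0.0456 with fold changes of -3.12 and -2.95. *Hsd11b2* (ENSMUSG00000031891, chromosome 8: 108042646 to 108047884, + strand), the inactivating enzyme, measured 8.55 and 9.00 CPM in GFP+ and 8.74 and 8.48 CPM in GFP- cells. The groups overlapped, and the log2 difference of 0.13 had a 95% interval of -0.25 to 0.51 (adjusted p = 0.508, edgeR).

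Among the response genes at P1, *Fkbp5* (ENSMUSG00000024222, chromosome 17: 28536040 to 28654469, - strand) lay the other way from the receptor. It measured 57.3 and 58.4 CPM in GFP+ cells and 24.1 and 24.5 CPM in GFP- cells, 2 tight pairs far apart. Its log2 fold change was 1.36 (SE 0.087, adjusted p = 8.15e-05, edgeR), or 2.56-fold higher, below the 4-fold criterion. *Zbtb16* (ENSMUSG00000066687, chromosome 9: 48462416 to 48644050, - strand) measured 1.05 and 1.08 CPM in GFP+ cells and 24.8 and 13.8 CPM in GFP- cells. The GFP- pair was wide but far above the GFP+ pair, with a log2 fold change of -4.07 (SE 0.35, adjusted p = 0.000258, edgeR).

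The other 3 response genes lay close together in both fractions at P1. *Tsc22d3* (ENSMUSG00000031431, chromosome X: 137074067 to 137135198, - strand) measured 35.2 and 38.2 CPM in GFP+ and 42.9 and 48.0 CPM in GFP- cells. These pairs did not overlap, but the log2 difference of -0.21 (95% interval -0.45 to 0.034) had an adjusted p of 0.124 in edgeR. *Sgk1* (ENSMUSG00000019970, chromosome 10: 21601990 to 21719709, + strand) measured 62.4 and 75.1 CPM in GFP+ and 76.5 and 67.1 CPM in GFP- cells, which overlapped, and its log2 difference of 0.039 had an interval of -0.25 to 0.32 (adjusted p = 0.800, edgeR). *Per1* (ENSMUSG00000020893, chromosome 11: 68908719 to 68923462, + strand) measured 91.1 and 77.5 CPM in GFP+ cells and 139 and 74.8 CPM in GFP- cells. GFP- replicate 1 was the highest of the 8 libraries for *Per1* and decided its direction. The log2 difference was -0.24 (adjusted p = 0.524, edgeR) with all 4 libraries, 0.26 (adjusted p = 0.0497) without that library, and -0.63 (adjusted p = 2.96e-06) without GFP- replicate 2.

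**Figure D2:**
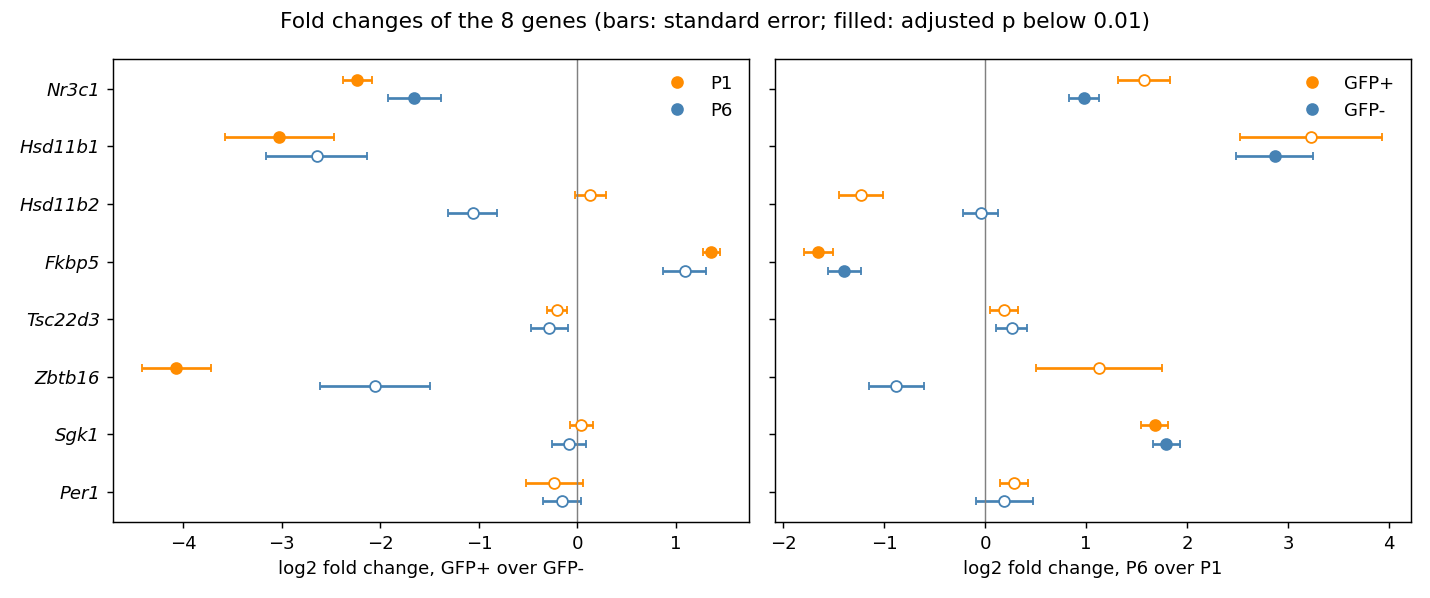
Log2 fold changes of the 8 genes from edgeR, left for GFP+ over GFP- cells at P1 and P6 and right for P6 over P1 in each fraction; points are estimates, bars are standard errors, and filled points have an adjusted p below 0.01. *Sgk1* sits near 0 on the left and between 1.68 and 1.79 on the right, and *Fkbp5* is the gene above 0 on the left and below 0 on the right in both sets of points.

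At P6 the receptor gene was again lower in GFP+ cells, and the 4 other genes with a clear gap between the fractions fell short of the threshold. The comparison called 1 of the 8 genes, which was lower, against 12.9% of the 18294 genes tested, of which 7.72% were higher and 5.19% lower. By edgeR 0 of the 8 was called with a change over 4-fold, which 7.98% of genes were. An adjusted p below 0.05 was found for 5 of the 8, against 33.5% of all genes. *Nr3c1* stood at 48.5 and 83.0 CPM in GFP+ cells against 211 and 200.3 CPM in GFP- cells. The groups were well apart although the GFP+ pair was wide, and the log2 fold change was -1.65 (SE 0.27, adjusted p = 0.00900, edgeR), or 3.15-fold. It was -2.06 without GFP+ replicate 2, the library with more markers of other cell types, and -1.28 without GFP+ replicate 1, both with an adjusted p below 0.01. The call was lost without GFP- replicate 1 (-1.56, adjusted p = 0.0384), without GFP- replicate 2 (-1.71, adjusted p = 0.0432), and when libraries were scaled by their totals (-1.64, adjusted p = 0.0135).

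Both enzyme genes were lower in each GFP+ library than in each GFP- library at P6. *Hsd11b1* measured 0.394 and 1.10 CPM in GFP+ cells and 5.85 and 3.94 CPM in GFP- cells, which did not overlap, with a log2 fold change of -2.65 (adjusted p = 0.0143, edgeR). *Hsd11b2* measured 3.43 and 3.58 CPM in GFP+ cells and 7.18 and 7.43 CPM in GFP- cells. These were 2 tight, separate pairs with a log2 fold change of -1.06 (95% interval -1.68 to -0.44, adjusted p = 0.0253, edgeR). *Fkbp5*, at 18.3 and 16.3 CPM in GFP+ cells and 8.76 and 7.42 CPM in GFP- cells, had a log2 fold change of 1.09 (SE 0.22, adjusted p = 0.0154, edgeR). With the DESeq2 test the adjusted p was 4.47e-05 for *Hsd11b1*, 0.00376 for *Hsd11b2*, 0.000490 for *Fkbp5* and 0.00178 for *Zbtb16*, all past the threshold, and these 4 genes also passed it in edgeR when either GFP+ library was left out. *Hsd11b1* then had a log2 fold change of -3.61 without replicate 2 and -2.12 without replicate 1, while *Fkbp5* was at 1.20 and 1.03. None of the 4 passed without GFP- replicate 1, with edgeR adjusted p of 0.0793 for *Hsd11b1*, 0.221 for *Hsd11b2*, 0.0867 for *Fkbp5* and 0.119 for *Zbtb16*, or without GFP- replicate 2, when 0 of all genes were called.

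The *Zbtb16* level at P6 differed between the GFP+ libraries. It measured 0.900 CPM in GFP+ replicate 1 and 3.41 CPM in replicate 2, against 9.03 and 9.32 CPM in GFP- cells. Replicate 1 was close to the P1 GFP+ level of 1.05 and 1.08 CPM, and replicate 2 was above it. The log2 fold change was -2.05 (SE 0.56, adjusted p = 0.0374, edgeR), -3.33 without replicate 2 and -1.40 without replicate 1. *Tsc22d3* at 41.3 and 37.2 against 53.2 and 42.1 CPM (log2 -0.29, adjusted p = 0.286) did not pass, with GFP+ libraries below both GFP- libraries. *Sgk1* at 207 and 205.5 against 229.7 and 206 CPM (log2 -0.087, interval -0.51 to 0.33) and *Per1* at 96.1 and 97.0 against 91.5 and 123 CPM (log2 -0.16, interval -0.62 to 0.31) did not pass either, with edgeR adjusted p of 0.727 and 0.561.

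**Figure D3:**
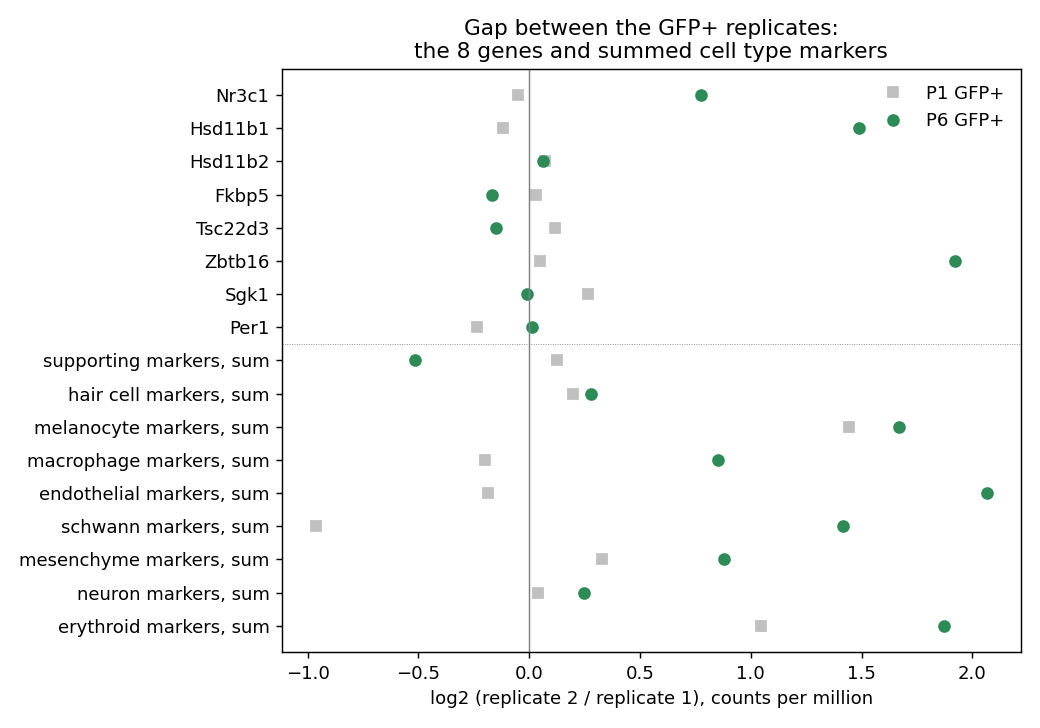
Log2 ratio of replicate 2 to replicate 1 in CPM (horizontal axis) for the 8 genes above the dotted line and for summed cell type markers below it, in P1 GFP+ cells (grey squares) and P6 GFP+ cells (green circles). At P6 *Nr3c1* (0.78), *Hsd11b1* (1.49) and *Zbtb16* (1.92) lie to the right with the melanocyte (1.67), endothelial (2.07), Schwann cell (1.42) and red blood cell (1.87) markers. The other 5 genes lie between -0.17 and 0.06 at P6. At P1 the melanocyte (1.44) and red blood cell (1.05) sums also lie to the right, and the Schwann cell sum (-0.96) lies to the left.

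The plot of replicate ratios shows that the gap did not touch all 8 genes. At P6, GFP+ replicate 2 was 1.71-fold higher than replicate 1 for *Nr3c1*, 2.81-fold for *Hsd11b1* and 3.79-fold for *Zbtb16*. For *Hsd11b2* (1.04-fold), *Sgk1* (0.994-fold) and *Per1* (1.01-fold) the libraries were nearly level, and for *Tsc22d3* (0.902-fold) and *Fkbp5* (0.890-fold) replicate 2 was slightly lower. The 3 genes that were called lower in GFP+ cells at P1 were thus the 3 with a raised level in that library. Over 268 genes at least 16-fold lower in GFP+ than GFP- cells at P1, the median log2 gap between the replicates was 1.75 in P6 GFP+ cells. The value of -0.045 in P1 GFP+ cells cannot serve as a comparison. These genes were picked for low levels in those libraries, and the 0.5 CPM added before the log draws gaps between low levels toward 0. The part of other cell types in the P6 GFP+ levels of these 3 genes was not tested.

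From P1 to P6, the comparison within GFP+ cells asked how supporting cells change as they mature. *Sgk1* rose and *Fkbp5* fell. Of the 8 genes, 2 were called, against 4.81% of 17213 genes tested. *Sgk1* went from 62.4 and 75.1 CPM at P1 to 207 and 205.5 CPM at P6. All P6 libraries were far above all P1 libraries, with a log2 fold change of 1.68 (SE 0.14, adjusted p = 0.00344, edgeR), or 3.20-fold. *Fkbp5* went from 57.3 and 58.4 CPM to 18.3 and 16.3 CPM, a log2 fold change of -1.65 (SE 0.14, adjusted p = 0.00402, edgeR), or 3.14-fold lower. Both calls were lost without P1 GFP+ replicate 2, when the fold changes were 1.79 for *Sgk1* (adjusted p = 0.0195) and -1.66 for *Fkbp5* (adjusted p = 0.0265), and both genes had nearly the same level in the P6 GFP+ libraries that differed in markers of other cell types.

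Both *Nr3c1* and *Hsd11b1* were higher in each P6 than in each P1 GFP+ library, short of the threshold. *Nr3c1* was at 23.9 and 23.1 CPM at P1 and 48.5 and 83.0 CPM at P6 (log2 1.57, SE 0.26, adjusted p = 0.0173, edgeR), with a change of 1.17 without P6 replicate 2 and 1.88 without P6 replicate 1. It passed in each of these and without P1 replicate 1 (adjusted p = 0.00985), but not without P1 replicate 2 (adjusted p = 0.0744). It also passed with the DESeq2 test (adjusted p = 7.72e-07) and with all 8 libraries in the fit (adjusted p = 0.00252). *Hsd11b1* had a log2 fold change of 3.22 (SE 0.70, adjusted p = 0.0345, edgeR). It rested on 4 and 2 counts at P1 and on 7 and 33 counts at P6, in replicates 1 and 2. Without P6 replicate 2, the library with more markers of other cell types, *Hsd11b1* fell below the filter and has no value. *Hsd11b2* was lower in both P6 libraries, from 8.55 and 9.00 to 3.43 and 3.58 CPM (log2 -1.23, interval -1.79 to -0.67, adjusted p = 0.0218), and passed without P6 replicate 1 (adjusted p = 6.50e-05) or P6 replicate 2 (adjusted p = 4.39e-05). Without P6 replicate 1, which leaves only replicate 2 at P6, *Hsd11b1* had a log2 fold change of 3.70. The direction of *Zbtb16* depended on P6 replicate 2, with a log2 fold change of 1.13 (adjusted p = 0.242) over all 4 libraries, -0.12 without it and 1.74 (adjusted p = 0.000108) without P6 replicate 1. *Tsc22d3* (log2 0.19, interval -0.16 to 0.54) and *Per1* (log2 0.29, interval -0.060 to 0.63) did not pass. Summed markers of 6 other cell types were also higher in both P6 than in both P1 GFP+ libraries, with 764 to 2037 CPM at P6 against 73.1 to 142.6 CPM at P1 for Schwann cells, 26.3 to 83.5 against 0.960 to 2.61 CPM for melanocytes, and 44.7 to 80.6 against 16.8 to 19.3 CPM for macrophages. The sums were 40.2 to 168.5 against 20.0 to 22.7 CPM for endothelial cells, 20.9 to 76.5 against 5.76 to 11.9 CPM for red blood cells and 59.9 to 71.1 against 42.3 to 43.5 CPM for neurons, while those of mesenchyme overlapped (5421 to 9980 against 5360 to 6728 CPM). *Col2a1* made up most of the mesenchyme sum, at 5147 and 6521 CPM in the P1 and 4656 and 7846 CPM in the P6 GFP+ libraries. The other mesenchyme markers, *Col1a1*, *Col1a2*, *Pou3f4* and *Dcn*, were each higher in both P6 than in both P1 GFP+ libraries. Of the neuronal markers, *Tubb3* and *Snap25* were higher in both P6 libraries and *Nefl* overlapped. *Nefm* was lower in both (9.85 and 17.2 against 22.1 and 23.9 CPM). Of all these cell type markers edgeR called *C1qa*, *Dcn* and *Tubb3* higher at P6. Their part in the levels of *Nr3c1* and *Hsd11b1* was not tested.

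In GFP- cells *Sgk1*, *Nr3c1* and *Hsd11b1* rose and *Fkbp5* fell between P1 and P6. These were 4 of 8 genes called, against 7.38% of 18920 genes tested, and *Sgk1* had the smallest adjusted p of the 4. *Sgk1* went from 76.5 and 67.1 CPM to 229.7 and 206 CPM (log2 1.79, SE 0.13, adjusted p = 0.000528, edgeR). *Fkbp5* went from 24.1 and 24.5 CPM to 8.76 and 7.42 CPM (log2 -1.39, SE 0.16, adjusted p = 0.00233, edgeR). *Nr3c1* went from 134 and 104 CPM to 211 and 200.3 CPM (log2 0.98, SE 0.15, adjusted p = 0.00617, edgeR), and *Hsd11b1* from 0.554 and 0.951 CPM to 5.85 and 3.94 CPM (log2 2.87, SE 0.38, adjusted p = 0.00369, edgeR). In all 4 genes the ages did not overlap. *Hsd11b1* was the one past 4-fold, which 1.85% of genes were with the adjusted p.

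Leaving out P6 GFP- replicate 1 or replicate 2 left 1 of these 4 calls, that of *Sgk1*, with adjusted p of 0.0420 and 0.0237 for *Nr3c1*, 0.0334 and 0.0135 for *Hsd11b1*, and 0.0156 and 0.0240 for *Fkbp5*. Scaling by library totals moved the median log2 fold change of all genes from -0.022 to -0.21 in this comparison, and *Nr3c1* to 0.79 (adjusted p = 0.0152). *Nr3c1* also did not pass with all 8 libraries in the fit (adjusted p = 0.0264). Of all genes called in GFP- cells, 68.3% were higher at P6, and 49.5% were with that scaling. *Zbtb16*, at 24.8 and 13.8 CPM at P1 and 9.03 and 9.32 CPM at P6, was lower in both P6 libraries (log2 -0.88, adjusted p = 0.0669), and passed without P1 GFP- replicate 2 (log2 -1.26, adjusted p = 1.24e-05). *Hsd11b2* (log2 -0.045, interval -0.47 to 0.38), *Tsc22d3* (log2 0.26, interval -0.10 to 0.63) and *Per1* (log2 0.19, interval -0.47 to 0.86) did not pass, although *Per1* did without P1 GFP- replicate 1 (log2 0.70, adjusted p = 0.00502). Between the ages, 3 of 5 macrophage markers, 3 of 4 Schwann cell markers and 1 of 4 endothelial markers rose in GFP- cells, with macrophage sums of 157.9 to 201.4 CPM at P1 and 381.0 to 421.6 CPM at P6, while of the melanocyte markers *Tyr* rose and *Tyrp1* fell. Mesenchyme sums were 22985 to 24155 CPM at P1 and 44559 to 47390 CPM at P6, with 0 of 5 markers called by edgeR, and neuronal sums were 135.8 to 456.3 CPM at P1 and 68.7 to 100.7 CPM at P6, with 0 of 4 called. The part of these cell types in the changes of the 8 genes was not tested. Since the lateral wall was removed only in part at P6, age and dissection cannot be told apart in these changes.

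An interaction term fitted to all 8 libraries asked whether the GFP+ to GFP- ratio of a gene was another at P6 than at P1. Since the lateral wall was removed only in part at P6, age and dissection cannot be told apart in this term for any gene. The term was called for 0 of the 8 genes by edgeR, against 1.93% of 19233 genes (0.946% higher and 0.988% lower, with 1.26% also over 4-fold). An unadjusted p below 0.05 in edgeR was found for 2 of the 8 and for 4085 of the 19233 genes. The DESeq2 test called 1 of the 8, against 4.63% of all genes higher and 2.85% lower. *Hsd11b2* came nearest, with a log2 difference of -1.21 (SE 0.26, 95% interval -1.80 to -0.61, unadjusted p = 0.00155, adjusted p = 0.0333). The GFP+ and GFP- levels of *Hsd11b2* overlapped at P1 and were 2.09-fold apart at P6, and the value was -1.22 without P6 GFP+ replicate 2. *Zbtb16* had a log2 difference of 2.01 (SE 0.70, adjusted p = 0.142, edgeR), which was 0.73 without P6 GFP+ replicate 2 and 2.59 (adjusted p = 0.00600) without P6 GFP+ replicate 1, so its value rests on that pair. For *Sgk1* (-0.14, interval -0.61 to 0.32) and *Fkbp5* (-0.28, interval -0.78 to 0.21) the change with age was not shown to differ between the fractions, and the intervals give the differences that these libraries allow.

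The other genes of the pathway, from lists drawn up by function, differed in how many moved. Among 11 partners of the receptor, mostly heat shock proteins and co-chaperones, 2 were higher and 1 lower in GFP+ cells at P1, against 16.6% of all genes higher and 20.7% lower. *Fkbp4*, the co-chaperone that competes with the *Fkbp5* product and carries the receptor to the nucleus, was higher in GFP+ cells at P1 (log2 1.36, adjusted p = 0.000119, edgeR) and at P6 (log2 1.71, adjusted p = 0.00438), with 324 and 356 CPM at P1 and 451 and 349.8 CPM at P6 against 118.9 to 149 CPM in GFP- libraries. *Bag1*, a co-chaperone of heat shock protein 70, was higher at P1 (log2 0.76, adjusted p = 0.000574). The mineralocorticoid receptor gene *Nr3c2*, whose product also binds glucocorticoids, was lower in GFP+ cells at P1 (log2 -2.80, adjusted p = 0.000143) and rose with age in GFP- cells (log2 1.25, adjusted p = 0.00155). None of the 11 was called with age in GFP+ cells by edgeR, against 4.81% of all genes. In the P6 GFP+ libraries *Nr3c2* measured 6.19 and 15.1 CPM, so like *Nr3c1* it was higher in replicate 2.

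Of 10 coregulators of the receptor, *Ncoa1* was higher (log2 1.34, adjusted p = 0.000211, edgeR) and *Ncoa3* lower (log2 -1.28, adjusted p = 0.000234) in GFP+ cells at P1. Of all genes 16.6% were higher and 20.7% lower there. The other comparisons called none by edgeR, against 12.9% of all genes at P6, 4.81% with age in GFP+ cells, 7.38% in GFP- cells and 1.93% in the interaction. Among 8 genes of steroid supply and handling, 6 were tested at P1, and 2 were higher and 2 lower in GFP+ cells, against the same shares of all genes at P1. *Srd5a1*, encoding a steroid 5-alpha-reductase, was higher in GFP+ cells at P1 (log2 1.11, adjusted p = 0.000792, edgeR) and P6 (log2 1.31, adjusted p = 0.00702). *H6pd*, which supplies the cofactor of the type 1 enzyme, was lower at P1 (log2 -0.97, adjusted p = 0.00214), as was the steroid exporter gene *Abcb1a* (log2 -1.46, adjusted p = 0.00705). *Star*, for cholesterol import into mitochondria, was higher at P1 (log2 0.89, adjusted p = 0.00434). None of this list was called with age in either fraction by edgeR, against 4.81% of all genes in GFP+ and 7.38% in GFP- cells.

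Of a further 25 genes known to be induced by glucocorticoids, 24 were tested with age, of which 16 did not pass in GFP+ cells and 15 did not pass in GFP- cells. In GFP+ cells 7 were higher and 1 lower at P6, against 2.86% of all genes called higher and 1.95% lower, with a median log2 fold change of 0.96 beside -0.0024 for all genes. In GFP- cells 8 were higher and 1 lower, against 5.04% and 2.34%, with a median of 0.67 beside -0.022 for all genes. These counts leaned on single libraries. Without P6 GFP+ replicate 2, 13 were higher and 2 lower in GFP+ cells (22.5% and 20.7% of all genes), without P6 GFP+ replicate 1, 14 and 2 (20.8% and 14.5%), and without P1 GFP+ replicate 2, 1 and 0 (0.442% and 0.315%). In GFP- cells fewer genes of the list were called higher without either P6 GFP- library, and the share of all genes called higher fell as well. The median stayed above 0 in each case, from 0.63 to 1.21 in GFP+ and 0.58 to 0.80 in GFP- cells. *Klf9*, a transcription factor gene, measured 11.4 and 9.96 CPM in P1 and 68.2 and 81.0 CPM in P6 GFP+ cells (log2 2.89, adjusted p = 0.00230, edgeR). *Bcl6*, encoding a transcriptional repressor, measured 1.57 and 1.37 CPM in P1 and 13.3 and 13.8 CPM in P6 GFP+ cells (log2 3.28, adjusted p = 0.00288). *Dusp1*, whose phosphatase turns off MAP kinases, measured 119.9 and 111 CPM at P1 and 417 and 358 CPM at P6 in GFP+ cells (log2 1.84, adjusted p = 0.00398). In each of these the P6 libraries were above all P1 libraries of that fraction.

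In GFP- cells the 3 rising genes of this list with the smallest adjusted p were *Dusp1* (log2 1.68, adjusted p = 0.000544, edgeR), the cell cycle inhibitor gene *Cdkn1a* (log2 2.03, adjusted p = 0.000698) and *Rgs2*, for a regulator of G protein signaling (log2 1.47, adjusted p = 0.000711). Both fractions called *Dusp1*, *Klf9*, *Cdkn1a* and *Bcl6* higher and *Hif3a* lower. How many of all genes were called in both fractions was not counted, so no excess of shared genes can be read from this list. *Hif3a*, of the hypoxia-inducible factor family, fell by 1.67 on the log2 scale in GFP+ cells (adjusted p = 0.00553) and by 1.66 in GFP- cells (adjusted p = 0.000453), as *Fkbp5* also fell. The interaction called 0 genes of this list in edgeR, against 0.946% of all genes higher and 0.988% lower. With the DESeq2 test it called 2 higher and 0 lower, against 4.63% and 2.85% of all genes. *Fkbp5* and *Hif3a* thus fell in both fractions while *Sgk1*, *Dusp1*, *Klf9*, *Cdkn1a* and *Bcl6* rose.

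**Figure D4:**
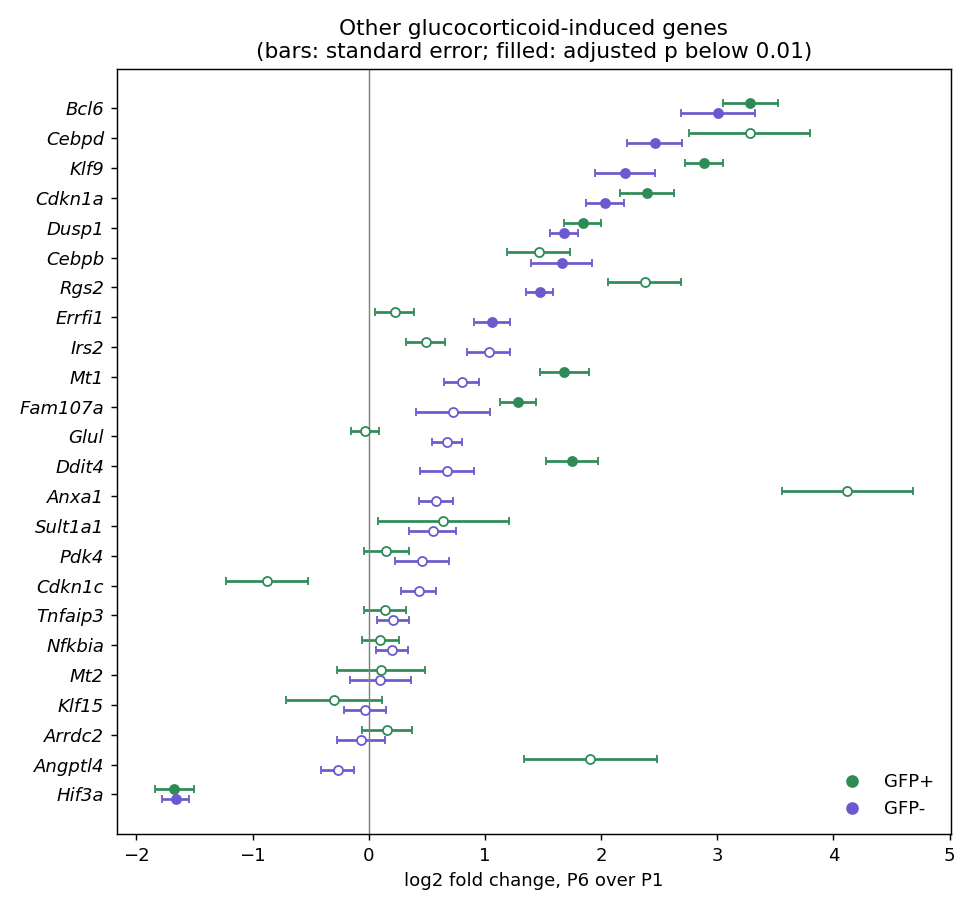
Log2 fold change from P1 to P6 (horizontal axis) of the 24 tested genes of the list of glucocorticoid-induced genes, in GFP+ (green) and GFP- cells (purple); bars are standard errors and filled points have an adjusted p below 0.01. Filled points lie to the right of 0 for 7 genes in GFP+ and 8 in GFP- cells, and *Hif3a* alone has filled points to the left.

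Between the fractions the same list split in both directions. At P1, 4 of its 24 tested genes were higher and 9 lower in GFP+ cells, against 16.6% and 20.7% of all genes, with a median log2 fold change of -0.70. It was 1 higher and 3 lower without P1 GFP+ replicate 1 (8.19% and 11.02% of all genes), 2 and 6 without P1 GFP+ replicate 2 (8.01% and 11.02%), 7 and 12 without P1 GFP- replicate 1 (22.4% and 27.8%) or replicate 2 (24.3% and 27.0%), and 2 and 9 with library totals. The lower ones were led by *Rgs2* (log2 -3.41, adjusted p = 1.09e-05, edgeR), *Angptl4*, for a lipase inhibitor (log2 -5.03, adjusted p = 1.78e-05), and *Anxa1*, for annexin A1 (log2 -4.93, adjusted p = 3.48e-05). The higher ones were led by *Errfi1*, a feedback inhibitor of EGF receptor signaling (log2 1.72, adjusted p = 0.000339), *Fam107a* (log2 2.30, adjusted p = 0.00252) and *Nfkbia*, for an inhibitor of NF-kappa-B (log2 0.61, adjusted p = 0.00775). At P6, *Fam107a* (log2 2.85, adjusted p = 0.00108) and *Ddit4*, an inhibitor of mTOR signaling (log2 1.76, adjusted p = 0.00440), were higher, and *Cebpd* (log2 -2.38, adjusted p = 0.00301), *Rgs2* (log2 -2.52, adjusted p = 0.00445) and *Tnfaip3* (log2 -1.06, adjusted p = 0.00858) were lower, with a median of -0.40. These 2 higher and 3 lower genes stood against 7.72% and 5.19% of all genes. The calls did not hold without either P6 GFP- library, and the number called moved with the number called over all genes. Leaving out 1 library, the median was -0.53 to -0.33.

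Of 8 inflammatory genes that glucocorticoids are known to repress, 7 were tested at P1 and 4 were lower in GFP+ cells, against 20.7% of all genes, led by the adhesion molecule genes *Icam1* (log2 -5.00, adjusted p = 2.64e-05, edgeR) and *Vcam1* (log2 -4.41, adjusted p = 2.84e-05) and the chemokine gene *Ccl2* (log2 -4.14, adjusted p = 0.000168). At P6, *Ccl2* (log2 -2.54, adjusted p = 0.00615) and *Icam1* (log2 -3.20, adjusted p = 0.00690) were lower in GFP+ cells, 2 of 8 against 5.19% of all genes. That count was 0 without either P6 GFP- library and 5 without P6 GFP+ replicate 1 or replicate 2 (14.7% and 22.6% of all genes). With age none of the 4 tested in GFP+ cells was called by edgeR, while *Icam1* (log2 1.30, adjusted p = 0.00173) and the prostaglandin synthase gene *Ptgs2* (log2 4.27, adjusted p = 0.00221) rose in GFP- cells, against 5.04% of all genes higher. In GFP+ cells 2 of 4 were called higher with age by the DESeq2 test, against 11.1% of all genes. With all 8 libraries in the fit 2 of 8 were (8.02% of all genes), and without a filter on low counts 5 of 8 (9.37%). The median log2 fold change of the list in GFP+ cells was 2.74 without P6 GFP+ replicate 1 and 1.70 without P6 GFP+ replicate 2. In GFP- cells 0 of 8 were called higher with all 8 libraries, against 2.81% of all genes. The median there was 0.75 without P6 GFP- replicate 1. The list summed to 6.71 to 9.56 CPM in P1 GFP+ libraries, and to 13.9 and 47.0 CPM in P6 GFP+ replicates 1 and 2.

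*Sgk1*, *Dusp1* and *Per1* are also known as early response genes, and the cells were dissociated and sorted before RNA was taken. Of 12 immediate early genes, *Junb* (log2 2.00, adjusted p = 0.00286, edgeR) and *Jun* (log2 1.74, adjusted p = 0.00699) rose with age in GFP+ cells, and *Jun* (log2 1.24, adjusted p = 0.00273), *Atf3* (log2 2.61, adjusted p = 0.00408) and *Junb* (log2 1.55, adjusted p = 0.00505) in GFP- cells, against 2.86% and 5.04% of all genes called higher. The DESeq2 test called 7 of the 12 higher and 1 lower in GFP+ cells, against 11.1% and 6.58% of all genes. In GFP- cells it called 9 higher and 0 lower, against 9.79% and 6.33%. The median log2 fold change of the 12 by edgeR was 0.79 in GFP+ and 1.00 in GFP- cells. Leaving out 1 library, that median was 0.57 to 1.07 in GFP+ and 0.74 to 1.21 in GFP- cells, while the number called moved with the library left out. The 12 genes summed to 4455 to 6717 CPM in P1 libraries and 7801 to 10469 CPM in P6 libraries, so every P6 library was above every P1 library in this sum, which abundant genes such as *Fos* and *Egr1* dominate. Single genes lay the other way in GFP+ cells, where *Egr3* measured 55.7 and 33.3 CPM at P1 and 13.9 and 16.9 CPM at P6 (log2 -1.44, adjusted p = 0.0281, edgeR) and *Nr4a1* measured 842 and 542 CPM at P1 and 424 and 404 CPM at P6 (log2 -0.65, adjusted p = 0.125, edgeR), both named after their values were seen. The part of the early genes in the rise of *Sgk1* was not tested. *Per1* had 74.8 to 139 CPM over the 8 libraries, with P1 and P6 overlapping in GFP- cells. In GFP+ cells its P6 libraries (96.1 and 97.0 CPM) were both above its P1 libraries (91.1 and 77.5 CPM). That difference did not pass (log2 0.29, adjusted p = 0.188, edgeR).

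The genes most like each of the 8 in level were found by Pearson's r of log2(CPM + 0.5) over the 8 libraries, among 15477 genes with a mean of at least 1 CPM. They are a description, since all points share the same libraries. *Nr3c1* was closest to *Sepp1* (r = 0.999), *Steap3* (0.998) and *Ecm2* (0.998), *Hsd11b1* to *Amica1* (0.996), *Omd* (0.987) and *Adipor2* (0.987), and *Zbtb16* to *Itga4* (0.997), *Stxbp5l* (0.996) and *Ebf2* (0.996). *Sgk1* was closest to *H2-K1* (0.988), *Tns4* (0.987) and *Itm2b* (0.987), *Fkbp5* to *Prpf31* (0.995), *Gm16938* (0.994) and *Psat1* (0.990), and *Hsd11b2* to *Shd* (0.996), *Mfap2* (0.992) and *Dnahc1* (0.990). *Tsc22d3* reached 0.963 with *Mesdc2* and *Per1* 0.924 with *Krit1*, the lowest of the 8.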

How the data were processed

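The deposited files hold unnormalized counts for each Ensembl gene. The authors aligned paired reads to mm9, the NCBIM37 build, using TopHat (version 1.4.0 in the submitters' processing notes) and counted them with HTSeq. The library kit does not mark strand, and the added amplification that the study used for small cell numbers is described for cultured explants, not for freshly dissected cochleas. Rows that name no gene (no feature, ambiguous, not unique) held 23.8% to 35.3% of listed reads and were left out. Gene names, positions and exon lengths came from the NCBIM37 annotation (34391 of 36536 genes). No exon base of the 8 genes is shared with another annotated gene. The 8 genes and the lists were chosen with earlier results of these data known.

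Each comparison was fitted on its 4 libraries, and the interaction on all 8, with edgeR 4.0.16 in R 4.3.3 (filterByExpr with a minimum count of 10 and a minimum total of 15, TMM, quasi-likelihood test, Benjamini-Hochberg adjustment over all genes tested), and all 8 genes passed the filter in each. The standard error is the log2 fold change divided by the square root of F, and the interval uses the t distribution with the fit's degrees of freedom. All 8 genes are named in each comparison, and of each other list at most the 3 per direction with the smallest adjusted p, plus sums and levels. *Nr3c2* in P6 GFP+ cells and the genes called in both fractions were named after their values were seen. Replicate libraries differed by more than sampling noise (chi-square per degree of freedom 15.1 to 58.0). DESeq2 1.42.0, other scalings, no filter, other sample sets and leaving out each library were the alternatives. The fits were tested on simulated data. Figures used Python 3.11.15 and matplotlib 3.10.9.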

Additional observations from a re-analysis of the deposited data

How the results depend on the processing

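At P1 the number of the 8 genes called was 3 to 5 under each alternative run, against 4. At P6 it was 1, and 0 with library totals, 5 with the DESeq2 test, 5 without a filter on low counts, 4 with all 8 libraries, 5 at an adjusted p below 0.05, and 0 to 5 leaving out 1 library. For GFP+ cells with age it was 2, and 4 with DESeq2, 5 without the filter, 4 with all 8 libraries, 5 at 0.05, and 0 to 6 leaving out 1 library. For GFP- cells with age it was 4, and 1 to 5 leaving out 1 library. For the interaction it was 0, and 1 with DESeq2, without the filter or at 0.05, and 0 to 1 leaving out 1 library. The cause of these moves was not tested. The counts of the lists leaving out each library were added after seeing the data. Over all genes the counts of calls were 2363 at P6 (4891 with DESeq2, 5309 unfiltered, 5157 with all 8 libraries, 6122 at 0.05, 0 to 7767 leaving out 1 library), 828 in GFP+ cells with age (3037, 4090, 2361, 3511, 137 to 7531), 1397 in GFP- cells with age (3050, 3993, 769, 3619, 249 to 3029) and 372 in the interaction (1439 with DESeq2, 2400 unfiltered, 1228 at 0.05, 28 to 1407), and at P1 6972 (3675 to 9798 leaving out 1 library). The share of P6 calls that were higher was 59.8%, and 71.4% with library totals, 47.5% with DESeq2, 41.7% unfiltered and 44.6% with all 8 libraries.

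Changes of sign occurred only in values that were not called with all libraries. With library totals *Sgk1* at P1 was -0.063 and *Tsc22d3* in the interaction 0.029. Leaving out 1 library gave *Sgk1* -0.066 to 0.15 at P1 and -0.18 to 0.054 at P6, *Per1* -0.63 to 0.26 at P1, -0.30 to 0.055 at P6 and -0.20 to 0.70 in GFP- cells with age, and *Zbtb16* -0.12 to 1.74 in GFP+ cells with age. In the interaction it gave *Tsc22d3* -0.29 to 0.11, *Per1* -0.41 to 0.54, *Hsd11b1* -0.60 to 0.83 and *Sgk1* -0.26 to 0.039. *Hsd11b1* fell below the filter in GFP+ cells with age without P6 GFP+ replicate 2 and has no value there. Of the values of single genes under alternatives, 396 kept their direction and side of the threshold, 50 passed it newly, 16 no longer passed it and 17 changed sign.

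Replicate numbers are shared between groups, but their replicate differences correlated at 0.036 (P1), 0.059 (P6), -0.158 (GFP+) and -0.328 (GFP-) over 15477 genes, so the numbers were not taken as pairs. With the replicate block 3 genes were called at P1, 1 at P6, 3 in GFP+ cells with age, 4 in GFP- cells with age and 0 in the interaction, where 151 genes of all were called. With the pairs crossed, an alternative chosen after seeing the data, 3 of the 8 (1254 genes in all) were called in GFP+ cells and 4 (3063 genes in all) in GFP- cells. Depth limits *Hsd11b1* most, at 6 counts in P1 GFP+ cells. Where a library is left out, the lone library of its group is assumed to vary like the other group.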

Other observations

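Among 6 genes of epithelial sodium transport, the process that *Sgk1* is known to raise, *Scnn1a*, for a subunit of the epithelial sodium channel, was higher in GFP+ cells at P1 (log2 3.06, adjusted p = 7.06e-05, edgeR) and P6 (log2 3.52, adjusted p = 0.00152). *Scnn1b*, for another subunit, measured 1.35 and 0.682 CPM in P1 and 17.6 and 17.3 CPM in P6 GFP+ cells, while GFP- libraries held 1.42 to 2.79 CPM at both ages. It rose with age in GFP+ cells (log2 4.13, adjusted p = 0.00415), and its change differed between the fractions (interaction log2 4.46, SE 0.56, adjusted p = 0.00451). The sodium pump gene *Atp1b1* (log2 1.24, adjusted p = 0.00605) also rose in GFP+ cells. In GFP- cells edgeR called 0 of the 6 with age and the DESeq2 test 1 higher, against 5.04% and 9.79% of all genes called higher. In GFP+ cells 3 of the 6 were called higher with age, against 2.86% of all genes. It was 1 without P1 GFP+ replicate 1 (2.91% of all genes), 1 without P1 GFP+ replicate 2 (0.442%), and 5 without P6 GFP+ replicate 2 (22.5%). The interaction called 0 of the 6 without P1 GFP+ replicate 1 or 2, P1 GFP- replicate 2, or P6 GFP- replicate 1 or 2.

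Of 14 other clock genes, 4 rose with age in GFP+ cells and 7 in GFP- cells, and none fell by edgeR, against 2.86% and 5.04% of all genes called higher. Leaving out 1 library gave 2 higher in GFP+ cells without P1 GFP+ replicate 2 (0.442% of all genes), 9 without P6 GFP+ replicate 1 (20.8%), and 8 higher and 2 lower without P6 GFP+ replicate 2 (22.5% and 20.7%). In GFP- cells it gave 1 to 8 higher, with 2 without P6 GFP- replicate 1 (1.11% of all genes), 1 without P6 GFP- replicate 2 (1.71%) and 8 without P1 GFP- replicate 1 (7.74%). *Bhlhe40*, for a clock repressor, measured 6.52 and 6.23 CPM in P1 and 111 and 93.8 CPM in P6 GFP+ cells (log2 4.09, adjusted p = 0.00176, edgeR) and rose in GFP- cells (log2 1.97, adjusted p = 0.000243). The interaction was called for *Bhlhe40* (log2 2.10, adjusted p = 0.00191) and *Bhlhe41* (log2 2.24, adjusted p = 0.00716), and for 0 of the 14 without P1 GFP+ replicate 1 or 2, or P6 GFP- replicate 1 or 2. In GFP+ cells *Nr1d1* (log2 2.54, adjusted p = 0.00225) and *Bhlhe41* (log2 3.26, adjusted p = 0.00562) rose too. At P1 *Arntl* (log2 1.90, adjusted p = 3.32e-05) was higher and *Bhlhe40*, *Bhlhe41* and *Hlf* were lower in GFP+ cells, among 1 higher and 4 lower of the 14, against 16.6% and 20.7% of all genes.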
